A study of Mus musculus with 8 samples.

Results

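The ATF4 and CHOP circuit was followed here as 10 genes, namely Atf4, Atf5, Atf3, Ddit3, Cebpb, Cebpg, Trib3, Chac1, Nupr1 and Ddit4. They were picked by gene name from the 55450 rows of the count table, as bZIP transcription factors and direct regulators that act after phosphorylation of the translation factor eIF2alpha. All 10 had a row and passed the filter on low counts, among 16662 genes tested. RNA came from c-Kit-positive cells taken from B16F10 melanomas (a mouse skin tumour line) that had grown for 17 days under the skin of wild-type C57BL6 mice. In the PERK_KO group (n = 4, tumours 1 to 4) the injected line lacked the kinase PERK, and in the Scramble group (n = 4, tumours 2 to 5) it was the scramble control line. In both groups 150000 tumour cells were injected into mice 6 weeks old, the host cells kept their own PERK gene, and the cells were enriched on magnetic beads. The labels do not say whether the knockout line was 1 clone or a pool, or whether each tumour had a mouse of its own, so p-values measure the spread between these tumours.

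PERK senses misfolded protein in the endoplasmic reticulum and phosphorylates eIF2alpha, which lowers most translation but favours the Atf4 transcript through short reading frames ahead of its coding sequence. ATF4 protein then turns on Ddit3 (CHOP), Atf3, Trib3, Chac1 and genes of amino acid supply, and the other eIF2alpha kinases feed into the same step. Since ATF4 is set largely by translation and turnover, the transcript levels below do not measure its protein.

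In PERK_KO tumours 3 of the 10 genes were higher: Atf3, Cebpb and Nupr1. The other 7, Atf4 and Ddit3 among them, did not pass the test in either direction. Of the 10 genes, 3 were called higher against a background of 7.66% of all genes tested, and 0 were called lower against 6.13% (edgeR quasi-likelihood test, Benjamini-Hochberg adjusted p under 0.05). Cebpg alone was lower at an unadjusted p under 0.05, and DESeq2 and limma-voom also called 0 members lower. Those same 3 genes had every PERK_KO library above every Scramble library, where 10.2% of all genes had such a gap upward and 11.1% downward. The median log2 difference of the 10 genes, PERK_KO over Scramble, was 0.01, beside -0.02 for all genes tested.

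On mm10, the 3 genes called higher lie on separate chromosomes: Atf3 at chr1:191170296-191218039 on the minus strand, Cebpb at chr2:167688915-167690418 on the plus strand and Nupr1 at chr7:126623249-126630861 on the minus strand. Atf4 lies at chr15:80255184-80257541 and Ddit3 at chr10:127290774-127296288, both on the plus strand. Cebpb is a gene of 1 exon.

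The labels were first checked on Eif2ak3, the gene of PERK, at 8.61, 7.73, 22.7 and 16.3 CPM in the PERK_KO libraries against 53.4, 56.4, 59.2 and 48.3 CPM in the Scramble libraries (CPM, read counts relative to library size after TMM scaling). Library totals ran from 29006949 to 47530393 counts in PERK_KO and from 44950033 to 56697163 counts in Scramble. The cells were not a pure precursor population: 17 melanocyte lineage genes summed to 24153 ± 1970 CPM in PERK_KO and 30588 ± 285 CPM in Scramble (SD, n = 4 each), and 17 pan-leukocyte genes to 960 ± 481 and 352 ± 38.6 CPM in the same order. Mitochondrial transcripts took 19.2% of counts in PERK_KO library 2 and 13.9% in PERK_KO library 3, against 3.71 to 6.89% in the other 6 libraries. In mixed cells of this kind, a change in the number of cells of a type and a change in RNA per cell cannot be told apart.

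Of the 10 genes, 4 carry the core of the C/EBP-ATF response element in their promoter, the site that ATF4 binds with a C/EBP partner, and these stretches are shown because they hold genes of both outcomes. The search used RefSeq promoters on GRCm38.p6 (250 bases before to 50 after the start), which matched all 10 genes, and read both strands for TGATGNAA. The core was in 4 of the 10 genes, against 3.97% of 32851 promoters. The 10 genes were chosen as parts of the ATF4 circuit and have 11 promoters, so these shares are not a like comparison and are not a result. Sites outside the window were not searched. Each line below is on the gene's own strand, with the matched letters, which read as the core on the other strand, in capitals.

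Atf3: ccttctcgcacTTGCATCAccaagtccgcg

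Nupr1: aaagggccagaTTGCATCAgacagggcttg

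Chac1: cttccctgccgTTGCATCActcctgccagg

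Trib3: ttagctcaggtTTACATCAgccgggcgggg

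The windows lie at chr1:191183425-191183454 for Atf3, chr7:126625562-126625591 for Nupr1, chr2:119351038-119351067 for Chac1 and chr2:152344028-152344057 for Trib3. The match begins 110 bases before the start in both Atf3 and Nupr1, 193 bases before it in Chac1, and at base 15 of the Trib3 transcript. The start is that of the RefSeq promoter. In Atf3 and Nupr1 it lies inside the gene span given above, so their windows are within the span and not ahead of it. Of these 4 genes, Atf3 and Nupr1 were called higher, while Chac1 and Trib3 were not called. Cebpb, the other gene called higher, had no match in its window. Other motifs were rarer among the members: TGACGCAA was found in Chac1 (0.49% of all promoters), TGACTCA in Ddit3 (5.2%) and CACGTG in Nupr1 (7.15%). TGACGTCA (1.79%) and CCAAT with CCACG 9 bases later (0.119%) were in no member. None of the motifs overlapped another in these windows, and a match is only a match of letters.

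**Figure D1:**
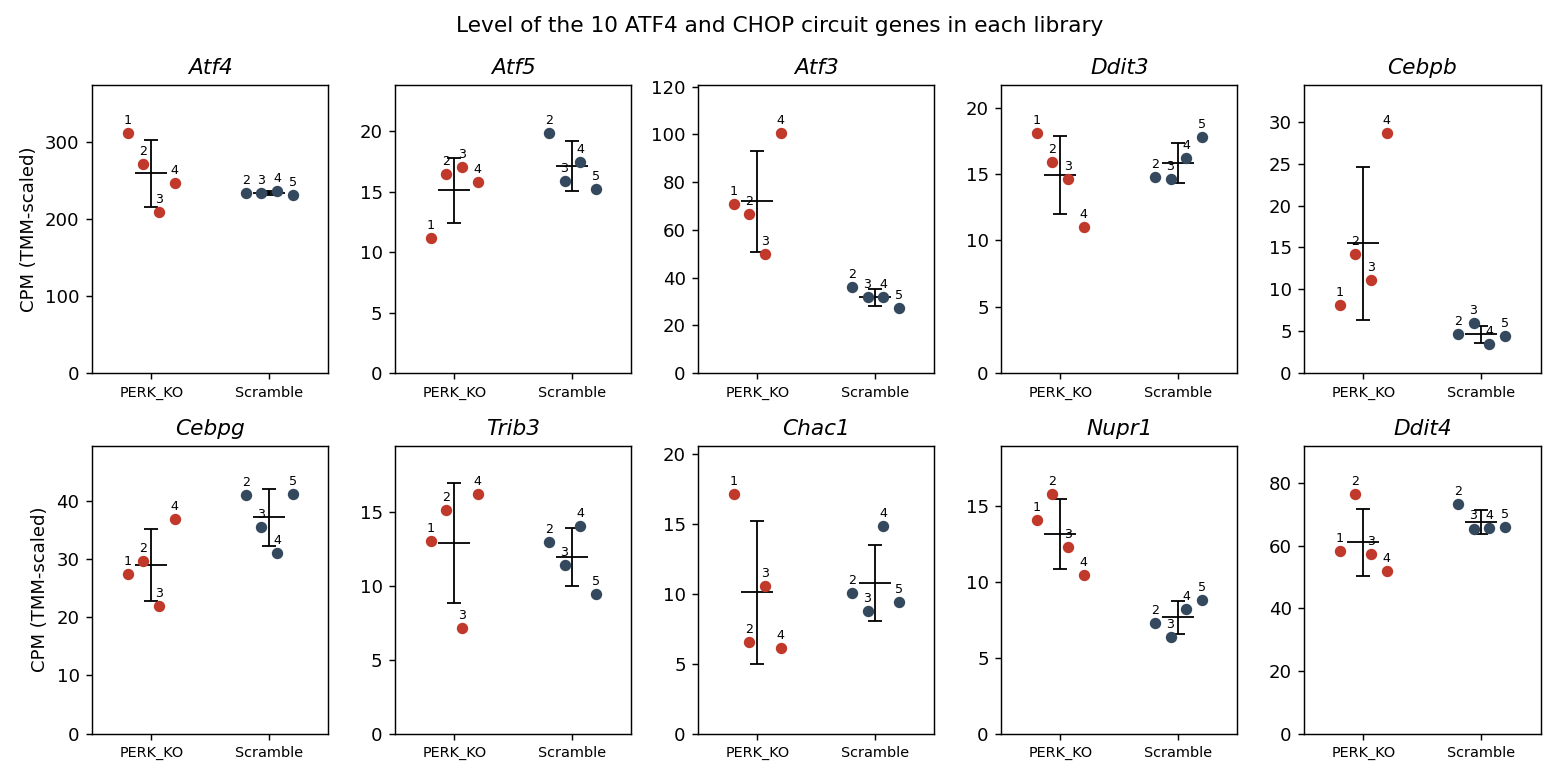
TMM-scaled CPM of each circuit gene by library, with the replicate number beside each point and the mean ± SD in black (n = 4 per group, PERK_KO left of Scramble). Atf3, Cebpb and Nupr1 have all PERK_KO points above all Scramble points, and the other 7 panels overlap.

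Atf4, the central activator, was the most abundant of the 10 per length of transcript, at 110 ± 18.4 RPKM in PERK_KO and 98.9 ± 0.876 RPKM in Scramble (CPM per kilobase of merged exons, SD, n = 4 each). Its CPM was 311, 271, 208 and 246 in PERK_KO libraries 1 to 4, against 233, 233, 236 and 231 in Scramble libraries 2 to 5. The PERK_KO libraries lay on both sides of the Scramble libraries, which were all close to each other. Between the groups the log2 difference was 0.15 (SE 0.11, 95% interval -0.09 to 0.39, edgeR adjusted p = 0.443). With each library left out in turn it lay between 0.06 and 0.24. The value of 0.24 came without PERK_KO replicate 3 and was not called (edgeR adjusted p = 0.0893).

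Atf5, a bZIP factor whose translation is controlled like that of Atf4, had 11.2, 16.4, 17.1 and 15.8 CPM in PERK_KO and 19.9, 15.9, 17.5 and 15.2 CPM in Scramble. The groups overlapped, with PERK_KO library 1 below all others, and the log2 difference was -0.18 (SE 0.17, 95% interval -0.55 to 0.19, adjusted p = 0.589). Il4i1 and Nup62, on the opposite strand, share 82 exon bases with Atf5. Il4i1 rose by 2.06 on the log2 scale (edgeR adjusted p = 0.0196), and Nup62 was not called (0.249).

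Atf3, a stress-induced factor that mostly represses and also responds to growth signals and cell handling, rose 2.27-fold. Its CPM was 70.8, 66.5, 49.9 and 101 in PERK_KO libraries 1 to 4, against 36.0, 31.7, 31.6 and 27.4 in Scramble libraries 2 to 5. The lowest PERK_KO library was above the highest Scramble library, and library 4 was the highest of all. The log2 difference was 1.18 (SE 0.18, 95% interval 0.79 to 1.58, edgeR adjusted p = 0.0025), and it lay between 0.97 and 1.32 with each library left out in turn.

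Ddit3 encodes CHOP, which pairs with C/EBP proteins and drives stress-linked cell death. It had 18.1, 15.9, 14.6 and 11.0 CPM in PERK_KO and 14.7, 14.6, 16.2 and 17.8 CPM in Scramble. PERK_KO library 1 was the highest and PERK_KO library 4 the lowest of the 8. The log2 difference of -0.09 (SE 0.17, 95% interval -0.47 to 0.29, adjusted p = 0.828) became 0.03 without PERK_KO replicate 4. Mars shares 68 and Gm4189 13 exon bases with Ddit3 on the opposite strand. A second Ddit3 row of the table shares 105 exon bases with it on the same strand and held 0 counts. How reads in the shared bases were counted is not given.

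Cebpb, the C/EBP factor of macrophage activation and the acute phase response, rose 3.37-fold, the largest change among the 10. Its CPM was 8.07, 14.2, 11.1 and 28.7 in PERK_KO libraries 1 to 4, against 4.65, 5.92, 3.44 and 4.37 in Scramble libraries 2 to 5. The groups did not overlap, but PERK_KO library 4 stood at 3.55 times PERK_KO library 1. The log2 difference was 1.75 (SE 0.36, 95% interval 0.97 to 2.54, edgeR adjusted p = 0.00897), and 1.27 without PERK_KO replicate 4. Tmem189, which shares 312 exon bases with Cebpb on the opposite strand, fell by 0.53 on the log2 scale (adjusted p = 0.00952).

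Cebpg, a C/EBP partner of ATF4 at amino acid response elements, had 27.4, 29.6, 22.0 and 36.9 CPM in PERK_KO and 41.1, 35.5, 31.0 and 41.2 CPM in Scramble. PERK_KO libraries 1 to 3 were below every Scramble library and PERK_KO library 4 was among them. Its log2 difference was -0.36 (SE 0.16, 95% interval -0.71 to -0.01, edgeR adjusted p = 0.173). Without PERK_KO replicate 4 it was -0.50 and passed the threshold (adjusted p = 0.0477).

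**Figure D2:**
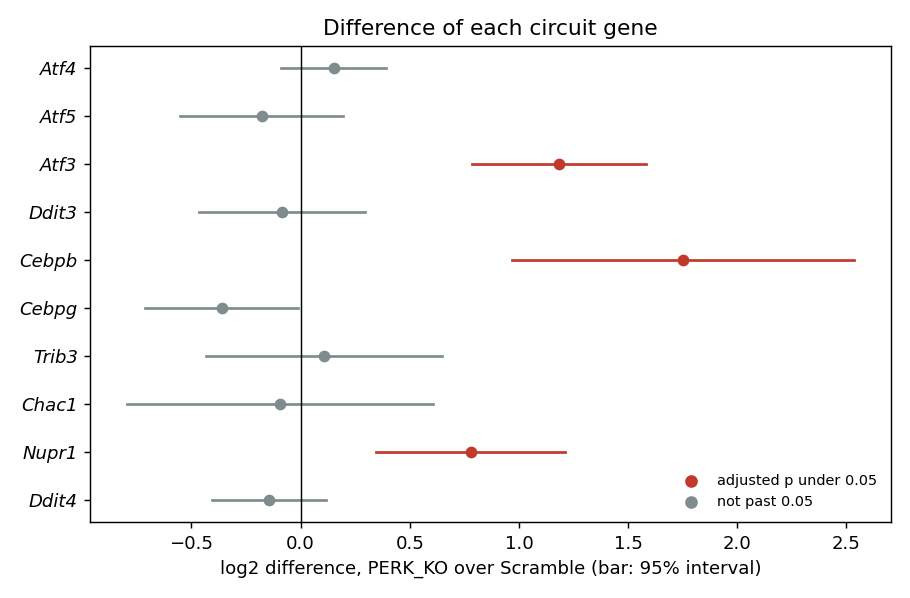
Log2 difference of each circuit gene, PERK_KO over Scramble, with its 95% interval (edgeR, n = 4 per group). Atf3 (1.18), Cebpb (1.75) and Nupr1 (0.78) are past an adjusted p of 0.05, and the points of the other 7 genes lie between -0.36 and 0.15.

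Trib3, a pseudokinase that is induced by ATF4 and CHOP and restrains them, had 13.0, 15.1, 7.17 and 16.2 CPM in PERK_KO and 12.9, 11.4, 14.0 and 9.48 CPM in Scramble. PERK_KO libraries gave both the highest and the lowest value. The log2 difference of 0.11 (SE 0.25, 95% interval -0.43 to 0.65, adjusted p = 0.852) became -0.03 without PERK_KO replicate 4.

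Chac1, which degrades glutathione and is a sensitive readout of ATF4 activity, had 17.2, 6.59, 10.6 and 6.14 CPM in PERK_KO and 10.1, 8.81, 14.8 and 9.42 CPM in Scramble. PERK_KO library 1 was the highest and PERK_KO library 4 the lowest of the 8, a 2.80-fold range within that group. The log2 difference was -0.09 (SE 0.32, adjusted p = 0.903), and its 95% interval, -0.80 to 0.61, was the widest after that of Cebpb. It became 0.07, 0.08 and 0.09 without PERK_KO replicate 2, PERK_KO replicate 4 and Scramble replicate 4.

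Nupr1, a small stress-induced chromatin protein, rose 1.72-fold. Its CPM was 14.1, 15.8, 12.3 and 10.5 in PERK_KO libraries 1 to 4, against 7.30, 6.34, 8.21 and 8.82 in Scramble libraries 2 to 5. The groups did not overlap, and here PERK_KO library 4 was the lowest of its group. The log2 difference was 0.78 (SE 0.20, 95% interval 0.35 to 1.21, edgeR adjusted p = 0.0232). The call ended without PERK_KO replicate 2 (0.68, adjusted p = 0.0528). It also ended on leaving out Scramble replicate 2, 3 or 4, with values of 0.75, 0.69 and 0.81 (adjusted p = 0.0755, 0.0922 and 0.0578).

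Ddit4 encodes REDD1, an inhibitor of the growth kinase complex mTORC1 that hypoxia and glucocorticoids also induce. It had 58.4, 76.6, 57.3 and 51.8 CPM in PERK_KO and 73.2, 65.4, 65.5 and 65.8 CPM in Scramble. PERK_KO library 2 was the highest and the other 3 PERK_KO libraries were the lowest. Its log2 difference was -0.15 (SE 0.12, 95% interval -0.41 to 0.12, adjusted p = 0.508). Of 17 hypoxia genes 2 were called higher and 2 lower, with a median of 0.07, and of 10 tested glucocorticoid genes 5 were called higher and 0 lower, with a median of 0.58.

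Per length of transcript, the order in PERK_KO tumours was Atf4, Ddit4, Atf3, Cebpb, Ddit3, Atf5, Chac1, Trib3, Nupr1 and Cebpg. In Scramble tumours it was Atf4, Ddit4, Atf3, Ddit3, Atf5, Cebpg, Chac1, Trib3, Cebpb and Nupr1. The level of Ddit4 was 34.8 ± 6.12 RPKM in PERK_KO, within the spread of Atf3 at 33.4 ± 9.81 RPKM, whereas in Scramble Ddit4 at 38.5 ± 2.18 RPKM was above Atf3 at 14.7 ± 1.63 RPKM (SD, n = 4 each). Cebpb was 4th in PERK_KO at 10.3 ± 6.07 RPKM, a spread that covers Ddit3 (8.70 ± 1.73) and the 5 genes below it, and 9th in Scramble at 3.06 ± 0.681 RPKM, level with Nupr1 at 3.05 ± 0.432 RPKM. The last 6 genes of the PERK_KO order, from 8.70 to 5.16 RPKM, each differed from the next by less than their spread.

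All 10 genes varied more within PERK_KO than within Scramble. The coefficient of variation was 16.7 to 58.9% in PERK_KO and 0.886 to 25.5% in Scramble, with Atf4 lowest and Cebpb highest in PERK_KO and Atf4 lowest and Chac1 highest in Scramble. The members did not all deviate in the same direction. Over the 8 libraries, after removal of each group's mean log2 CPM, 22 of the 45 pairs of members correlated positively and 23 negatively, with a median Pearson r of -0.01. Atf3 went with Trib3 (r = 0.836) and Cebpg (0.753), and Ddit3 with Nupr1 (0.835). Ddit3 and Chac1 ran against Cebpb (r = -0.875 and -0.870). These values rest mostly on the 4 PERK_KO libraries, which vary most, and PERK_KO library 4 was highest for Atf3, Cebpb, Cebpg and Trib3 and lowest for Ddit3, Chac1, Nupr1 and Ddit4. The genes most like Atf4 by the same measure were Usp49, Bend3 and Sgtb (r = 0.986, 0.985 and 0.983), and those most like Ddit3 were Guf1, Snrnp48 and Gm26830 (0.992, 0.983 and 0.981). These 6 genes were picked as the highest values among 16662 genes, so they only describe these 8 libraries.

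**Figure D3:**
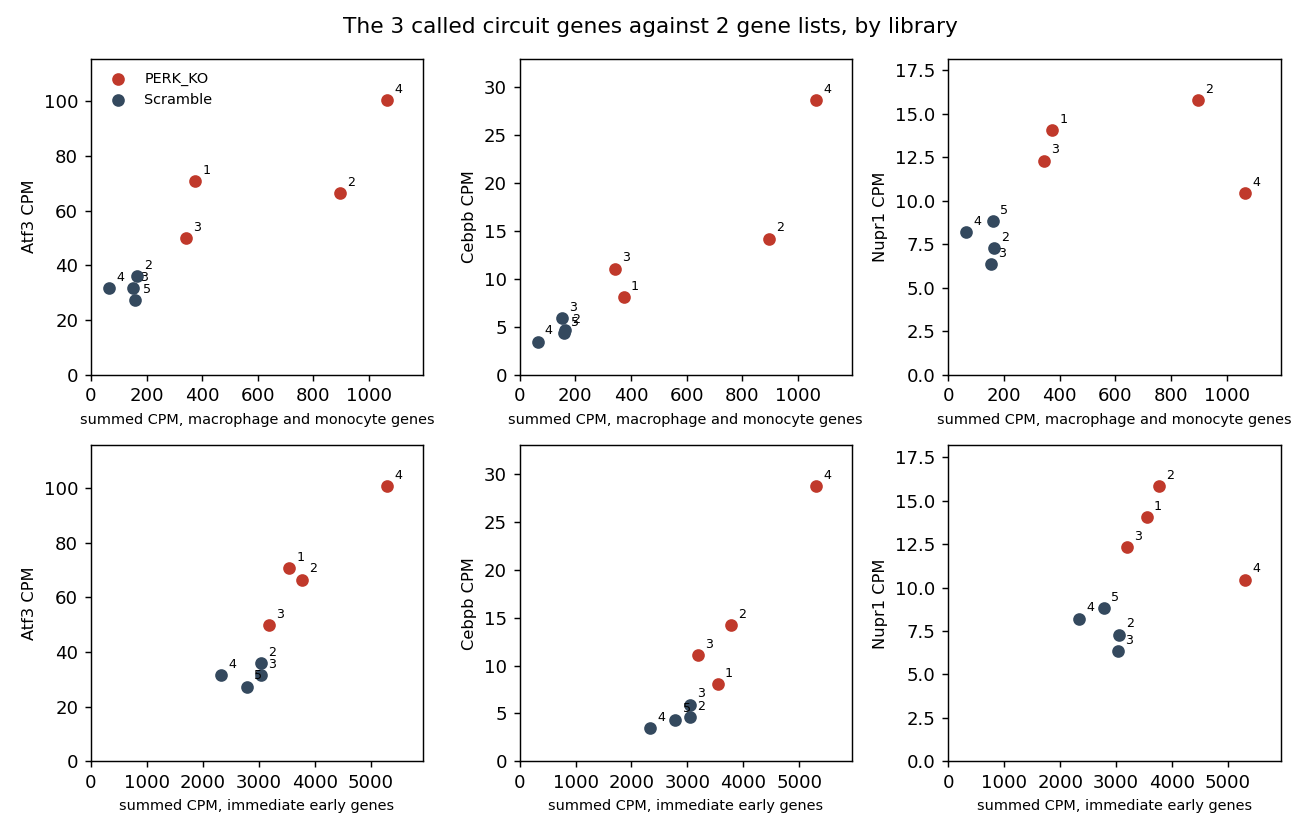
CPM of Atf3, Cebpb and Nupr1 in each library against the summed CPM of 14 macrophage and monocyte genes (upper row) and of 22 immediate early genes (lower row), with replicate numbers. PERK_KO library 4 is at the far right of every panel, with the highest Atf3 (101 CPM) and Cebpb (28.7 CPM) but the lowest Nupr1 of its group (10.5 CPM).

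Markers of some other cells were higher in PERK_KO, as were the 3 called genes. All 14 macrophage and monocyte genes were called higher, and they summed to 343 to 1066 CPM in PERK_KO and 64.8 to 164 CPM in Scramble, with none of them at 0 in either group. Of 10 mast cell genes 10 and of 12 epithelial genes 11 were also called higher. Other lists had fewer calls: 2 of 6 tested neutrophil genes, 2 of 7 tested T and NK cell genes and 1 of 11 fibroblast and mural genes were higher, and 0 of 10 endothelial genes were called. Immediate early genes, which rise within minutes of stimulation or tissue digestion, were called higher in 13 of 22 cases and lower in 0, and summed to 3186 to 5303 CPM in PERK_KO and 2333 to 3048 CPM in Scramble. Among the PERK_KO libraries the macrophage, pan-leukocyte and immediate early sums were all highest in library 4 and lowest in library 3, as was Atf3. Cebpb was highest in library 4 but lowest in library 1, and Nupr1 was lowest in library 4. The mast cell sum was also lowest in library 1 (714 CPM) and highest in library 4 (3140 CPM). So was the T and NK cell sum, at 5.59 and 69.7 CPM. The neutrophil and epithelial sums were highest in library 4 but lowest in libraries 3 and 2. The fibroblast and endothelial sums were lowest in library 1 and highest in library 3. With the mean of the pan-leukocyte genes in the model, the log2 difference was -0.16 for Cebpb (adjusted p = 0.969), 0.54 for Atf3 (0.73) and 1.16 for Nupr1 (0.497). With the mean of the melanocyte genes it was -0.61 for Cebpb, -0.22 for Atf3 and 1.08 for Nupr1 (adjusted p = 0.984, 0.984 and 0.919). The group split accounted for 78.2% of the variance of the leukocyte mean and 92.1% of that of the melanocyte mean, so in these models group and cell makeup cannot be told apart. The part of mast, T and NK cell, epithelial and immediate early genes in the 3 calls was not tested.

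**Figure D4:**
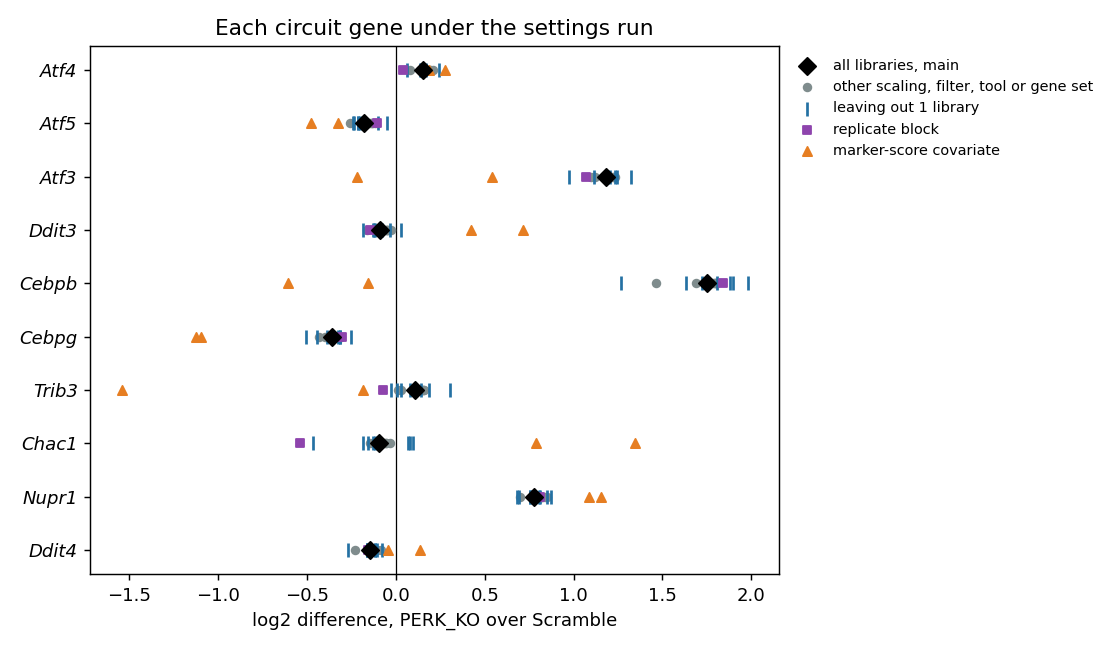
Log2 difference of each circuit gene, PERK_KO over Scramble, with all libraries and under the 20 other settings run. Points of Atf3, Cebpb and Nupr1 stay above 0.5 in the settings without a marker-score covariate, and Atf4 stays between 0.04 and 0.27 throughout.

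Upstream of the circuit, Eif2ak3 fell by 1.97 in log2 CPM, with an SE of 0.31 (edgeR adjusted p = 0.00371). Eif2ak4, the amino acid sensing kinase GCN2, rose by 1.13 (SE 0.11, adjusted p = 0.000147), at 107 ± 15.1 CPM in PERK_KO and 49.0 ± 1.64 CPM in Scramble (SD, n = 4 each). The other 2 eIF2alpha kinases were not called. Among 29 genes of kinases, phosphatase subunits, eIF2B and ATF4 turnover, 2 were higher and 6 lower, with a median of -0.08. Over all genes tested the shares were 7.66% higher and 6.13% lower, and the 6 lower genes include Eif2ak3, the gene knocked out. Egln3, a prolyl hydroxylase linked to ATF4 turnover, was the other gene that rose, by 1.29 (SE 0.23, adjusted p = 0.00447). Gcn1l1, the partner that activates GCN2, and Dnajc3, an inhibitor of eIF2alpha kinases, fell by 0.39 and 0.32. The count of lower genes changed with the scaling and with single libraries left out. With RLE scaling Eif2b5, Kat2b and Btrc lost their calls (edgeR adjusted p = 0.067, 0.0633 and 0.0784). They also lost them with upper-quartile scaling (0.0923, 0.056 and 0.0866) and kept them with DESeq2 (0.0349, 0.0341 and 0.0305). Without Scramble replicate 3, 5 of the 6 lost their call and Eif2ak3 kept it (adjusted p = 0.0155). The adjusted p was then 0.058 for Gcn1l1, 0.0638 for Dnajc3, 0.154 for Eif2b5, 0.106 for Kat2b and 0.141 for Btrc. Without Scramble replicate 5, Dnajc3 (0.0503), Eif2b5 (0.106), Kat2b (0.0559) and Btrc (0.0996) lost their calls. Eif2b5, Kat2b and Btrc also lost theirs without Scramble replicate 2 and without PERK_KO replicate 2 or 3.

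Downstream, 52 of 54 other listed targets of ATF4 and CHOP were tested, and 5 were higher and 2 lower, with a median of 0.05. These counts are near the shares over all genes tested, 7.66% higher and 6.13% lower. The count higher was 3 without Scramble replicates 2, 3 or 5, and the count lower was 1 without Scramble replicates 2 or 3. None of the 13 tRNA synthetase genes was called, and the most abundant, Eprs, had 408 ± 70.1 CPM in PERK_KO and 441 ± 32.5 CPM in Scramble (SD, n = 4 each). The next, Gars, had 297 ± 38.8 and 261 ± 6.91 CPM in the same order. Among 13 amino acid and one-carbon enzymes, Aldh1l2 of the mitochondrial folate pathway rose by 0.71 (adjusted p = 0.0214) and Phgdh, the first enzyme of serine synthesis, fell by 0.41 (0.0149). Among 8 tested transporters the glycine transporter Slc6a9 rose by 0.73 (0.0145). All 3 calls were lost with some libraries left out. Aldh1l2 had adjusted p = 0.0509, 0.0738, 0.0687 and 0.0508 without Scramble replicates 2 to 5, Phgdh 0.0552 and 0.0626 without Scramble replicates 2 and 3, and Slc6a9 0.0555, 0.0506 and 0.0526 without Scramble replicates 2, 3 and 5.

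Of 18 tested stress effectors and secreted outputs, 3 were called higher, 1 was called lower and 14 were not called, with a median of 0.24. Stc2, a secreted glycoprotein, had 8.23 ± 2.57 CPM in PERK_KO and 0.550 ± 0.158 CPM in Scramble (SD, n = 4 each), a log2 difference of 3.90 (SE 0.38, edgeR adjusted p = 0.000227). The BH3-only death genes Pmaip1 (NOXA) and Bcl2l11 (BIM) rose by 3.14 and 0.92 (adjusted p = 0.00574 and 0.0102), and the Pmaip1 value was 2.30 without PERK_KO replicate 4. The Pmaip1 value was 0.26 with the pan-leukocyte mean in the model and 0.21 with the melanocyte mean, and that of Bcl2l11 was 0.33 and -0.02 (adjusted p at or above 0.886 in all 4 cases). Vldlr, a lipoprotein receptor, fell by 1.51 (adjusted p = 0.00246).

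**Figure D5:**
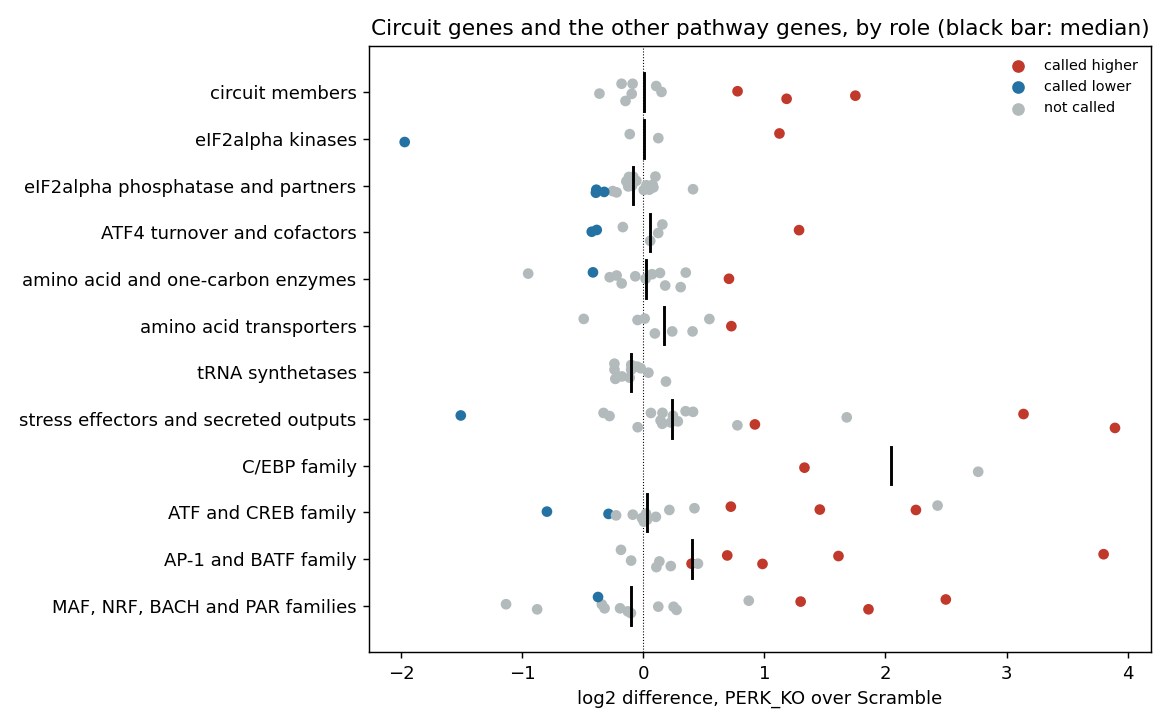
Log2 difference, PERK_KO over Scramble, of every tested circuit gene and pathway gene by role, with the median of each role as a black bar. Medians lie near 0 in most roles, and the C/EBP family bar, at 2.05, rests on 2 genes.

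Among the other bZIP factors, possible partners or rivals of the circuit at its sites, 12 of 43 tested were higher and 3 lower, with a median of 0.13. The shares over all genes tested were 7.66% higher and 6.13% lower. Cebpd, which often accompanies Cebpb, rose by 1.33 (SE 0.28, edgeR adjusted p = 0.0103), and Cebpa, the myeloid lineage member, had 7.31 ± 5.61 CPM in PERK_KO and 1.07 ± 0.858 CPM in Scramble (adjusted p = 0.0945). Of 15 tested ATF and CREB factors, Creb5 rose by 2.25 (SE 0.18, adjusted p = 7.61e-05) and Creb3l1, a factor cleaved at the Golgi, by 1.46 (SE 0.23, adjusted p = 0.00273). Crebzf fell by 0.79 (adjusted p = 0.0114). Of 11 AP-1 and BATF factors 5 were higher and 0 lower, led by Fosl1 at 5.20 ± 4.39 CPM in PERK_KO and 0.369 ± 0.182 CPM in Scramble. The log2 difference of Fosl1 was 3.80, and 3.02 without PERK_KO replicate 4. Maff, a small MAF partner, and Bach2, a transcriptional repressor in lymphocytes, rose 2.46-fold and 3.63-fold (adjusted p = 0.00261 and 0.00416). The same increase in macrophage, monocyte and immediate early genes stands beside these calls, and its part in them was not tested.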

How the data were processed

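The deposited raw table holds read counts per gene, 1 column per library, made by the authors with tools that the submitters' processing notes list as DESeq2 1.30.1, HTSeq 0.6.1, STAR 2.5.3a and bcl2fastq, with the build mm10 and no settings. The libraries were strand-specific per the labels' protocols, and the strand setting of the counting is not given in the sources used here. The authors' second deposited table is a signal: within a library every count is divided by the same factor. It served only to check the first. All 55450 identifiers matched GENCODE M21, on the same assembly as mm10.

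Genes were kept with filterByExpr by group (16662), scaled with TMM and fitted by group in edgeR 4.0.16 with robust quasi-likelihood dispersions in R 4.3.3, with Benjamini-Hochberg adjustment over all genes tested and a threshold of 0.05. Log2 CPM for correlations used a prior count of 2. The members and lists were chosen with earlier results of these data known. Named genes followed a rule: all members, then per role up to 3 calls in each direction ranked by p (for a role with no call, its 2 most abundant genes), and the 3 genes most like Atf4 and Ddit3. From these the text writes out some, chosen after their values were seen, together with Cebpa. Other settings were DESeq2 1.42.0, limma-voom (limma 3.58.1), other scalings and filters, a fit that is not robust, marker covariates, the replicate number as a block and omission of single libraries, with mitochondrial genes left out added after the data were seen. On simulated counts for 16662 genes with 200 changed, it found 26% of the 1.5-fold, 58% of the 2-fold, 78% of the 4-fold and 78% of the 8-fold changes, with 5 false calls among 16462 unchanged genes. Python 3.11.15, pandas 2.3.3 and matplotlib 3.10.9 made tables and plots.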

Additional observations from a re-analysis of the deposited data

Results flagged for a closer look

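Ddit4 in Scramble library 2 stood apart from its group, at 73.2 CPM against 65.4 to 65.8 CPM in the other 3 Scramble libraries. The gap to the next library was 0.951 of the group's range. It was the only 1 of 22 groups of 4 libraries checked, over the 10 members and Eif2ak3, to pass Dixon's limit, and chance flags about 1 group in 20.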

How the results depend on the processing

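Atf3 and Cebpb stayed called under each scaling, filter and tool and with each library left out, and Nupr1 under each scaling, filter and tool. The count of members higher (3) was 2 to 3 with 1 library left out and 0 with the replicate block, the melanocyte covariate or the leukocyte covariate. The count lower (0) was 0 to 1 with 1 library left out. Other targets higher (5) were 10 with DESeq2, 1 with the block, 0 with either covariate and 3 to 7 with 1 library left out, and those lower (2) were 0, 0, 0 and 1 to 3 with the block, either covariate and 1 library left out. Over all genes, 1277 higher and 1022 lower became 2069 higher with DESeq2, 653 lower with upper-quartile scaling, 127 and 81 with the block, 1 and 0 with the melanocyte covariate, 10 and 2 with the leukocyte covariate, and 639 to 1372 and 439 to 1244 with 1 library left out. Calls were 55.5% higher with TMM, 68.7% with upper-quartile scaling, 64.0% with RLE and 47.7% with library totals alone, the 1 scaling with more lower (1169) than higher (1065) calls.

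After removal of each group's mean, same-numbered libraries correlated over all genes tested at r = -0.00906, 0.0982 and -0.204 for numbers 2, 3 and 4. Libraries of unlike numbers correlated at -0.0701 to 0.0839. The labels do not say whether same-numbered tumours shared a batch, and these values cannot show it, so what the replicate block stands for is not known. PERK_KO library 1 and Scramble library 5 have no partner, so under the block the group difference rests on numbers 2, 3 and 4. With the block the log2 difference was 1.07 for Atf3, 1.84 for Cebpb, 0.81 for Nupr1 and, reversed, -0.0737 for Trib3.

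Directions turned mainly under the covariates. With the melanocyte covariate the log2 difference was -0.22 for Atf3, 0.71 for Ddit3, -0.61 for Cebpb, -1.54 for Trib3, 0.79 for Chac1, 0.14 for Ddit4, 0.23 for Eif2b5, 0.13 for Eprs, -0.0216 for Bcl2l11, -0.0121 for Cebpd, -0.37 for Junb and -0.13 for Maff. With the leukocyte covariate it was 0.42 for Ddit3, -0.16 for Cebpb, -0.18 for Trib3, 1.35 for Chac1, -0.17 for Junb and -0.12 for Fosl2. With 1 library left out, Ddit3 ran from -0.18 to 0.0294, Trib3 from -0.0270 to 0.30 and Chac1 from -0.47 to 0.0937. The cause of these changes was not tested. In the simulated data, with 4 libraries a group, 26% of the changes of 1.5-fold were found. Those data held 50 changed genes per fold size, against 1277 higher and 1022 lower calls here, so that share may not hold for the real data. Among the members not called, the 95% intervals of Atf4, Atf5, Ddit3 and Ddit4 exclude a 1.5-fold change in either direction. Those of Cebpg, Trib3 and Chac1 do not.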
